A study of Arabidopsis thaliana with 16 samples.

Results

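Chloroplast sigma factors are 6 of the 69252 annotated entries in each of the authors' deposited comparison tables, taken by gene identifier as SIG1 to SIG6, and all 6 were tested in both comparisons. Chloroplast genes are transcribed in large part by a bacterial-type RNA polymerase whose core subunits are encoded in the plastid genome. The sigma factors are encoded in the nucleus, imported into the plastid, and give this polymerase its promoter recognition. Nuclear control of their levels is 1 way in which light and stress signals reach chloroplast transcription, and SIG5 is the member known for its response to blue light, UV-B and abiotic stress.

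The study measured whole Arabidopsis thaliana seedlings, ecotype Columbia-0, grown on agar with sucrose under 60 mE of white light and frozen on day 10. The groups used here are wild-type Col-0 in white light, wild-type Col-0 with 1.5 mE of added UV-B at 315 nm throughout, and the line dd, with the drm1-2 and drm2-2 T-DNA mutations, in white light. DRM1 and DRM2 are the DNA methyltransferases of RNA-directed DNA methylation. Each group had 2 RNA-seq libraries labelled as biological replicates, of 8 RNA-seq and 8 bisulfite libraries in the series; UV-B-treated dd and the bisulfite libraries were not analysed here. Values are fragments scaled by transcript length and sequencing depth (FPKM), with 1 pooled value per group, which leaves the replicate spread unknown; the authors' p-values and q-values are the only test over replicates. In whole seedlings, fewer cells of a type and less RNA per cell cannot be told apart.

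As a check of the line, the authors' deposited table lists DRM2 at 1.82 FPKM in dd against 7.09 for Col-0, a fall that passed the threshold of q under 0.05 (q = 0.0138). The authors' deposited table gives DRM1 0.319 FPKM in dd and 0 in Col-0, with no test. As a check of the tissue, all 4 green tissue markers were between 1763 and 11790 FPKM in Col-0 in white light, and the highest of 3 seed markers was at 0.500 FPKM, in the authors' deposited table of the UV-B comparison.

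In untreated Col-0 the sigma factors covered a narrow range of levels per length. SIG1, linked to the photosystem I gene psaA, had the highest value, 64.6 FPKM in the authors' deposited table of the UV-B comparison. SIG2, which serves several plastid tRNA genes, had 44.2 FPKM, and SIG6, which serves photosynthesis genes early in seedling development, 43.5 FPKM in the authors' deposited table. SIG4, linked to the plastid gene ndhF, had 28.5 FPKM and SIG5 28.3 FPKM in the authors' deposited table. SIG3, linked to the plastid gene psbN, was lowest at 22.1 FPKM in the authors' deposited table. The order was therefore SIG1, SIG2, SIG6, SIG4, SIG5, SIG3, with a ratio of 2.92 between the ends. Within it, SIG2 and SIG6, and SIG4 and SIG5, had nearly equal values, and whether neighbours differ cannot be told without values per replicate. Against all 19344 tested protein-coding genes, the 6 Col-0 levels lay between percentiles 68.1 (SIG3) and 88.5 (SIG1). Of the summed sigma factor level in untreated Col-0, SIG1 made up 27.9%, SIG2 19.1%, SIG6 18.8%, SIG4 12.3%, SIG5 12.2% and SIG3 9.57%, computed from the authors' deposited table.

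**Figure D1:**
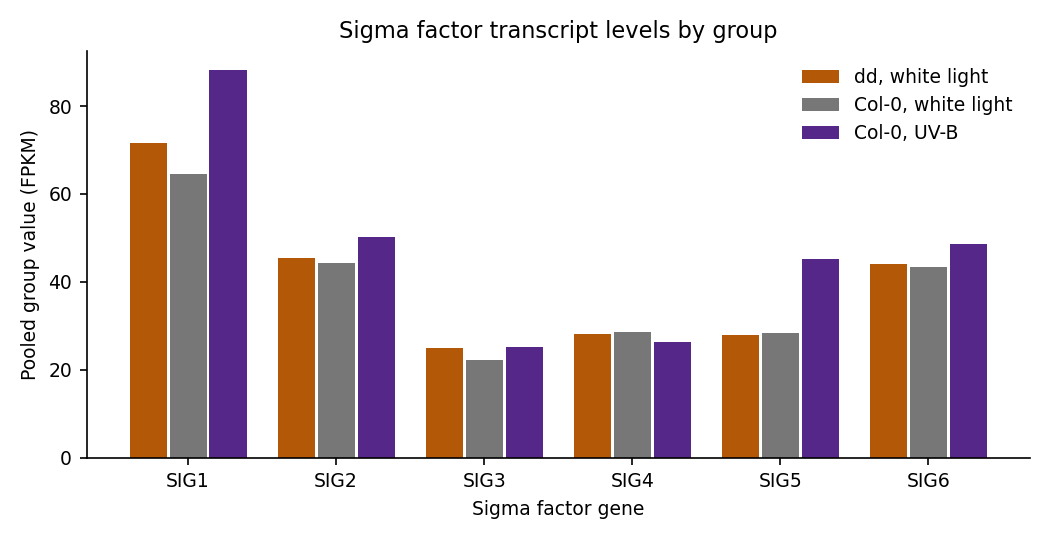
Pooled FPKM of SIG1 to SIG6 (vertical axis, from 0) in 3 groups, namely dd in white light, untreated Col-0 and UV-B-treated Col-0. The Col-0 white-light bars are from the UV-B table, whose scale differs from the dd table by a factor of 1.01; bars have no error because 1 value per group was deposited. SIG5 and SIG1 stand higher under UV-B (45.3 and 88.2 FPKM) than in white light (28.3 and 64.6 FPKM).

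The UV-B comparison set Col-0 seedlings grown with UV-B against seedlings kept without it. SIG5, which directs transcription from a light-responsive promoter of the plastid gene psbD, rose from 28.3 FPKM in white light to 45.3 under UV-B (p = 0.0001 and q = 0.00458 in the authors' deposited table). This is a log2 change of 0.68, or 1.60-fold. SIG5 was the single sigma factor past the threshold, 1 of 6, where 3.85% of 20595 tested entries passed, 2.04% as higher and 1.81% as lower. Under UV-B its level moved past that of SIG4 in the order, and its share of the summed sigma factor level went from 12.2% to 16.0%, computed from the authors' deposited table.

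SIG1 was at 88.2 FPKM under UV-B and 64.6 without it, a log2 change of 0.45 that missed the threshold (p = 0.00315 and q = 0.0714 in the authors' deposited table). SIG2 had 50.2 and 44.2 FPKM, a log2 change of 0.18 (q = 0.834 in the authors' deposited table). For SIG3 the values were 25.1 and 22.1 FPKM, also a log2 change of 0.18 (q = 0.842 in the authors' deposited table). SIG6 had 48.6 and 43.5 FPKM, a log2 change of 0.16 (q = 0.892 in the authors' deposited table). SIG4 was the single member with a lower value under UV-B, 26.4 against 28.5 FPKM and a log2 change of -0.11 (q = 0.998 in the authors' deposited table). By value, 5 of 6 members were thus higher under UV-B, with a median log2 change of 0.18. The median was 4.7e-05 over all tested entries, and 0.026 over 3950 tested protein-coding genes with Col-0 levels within the members' range. The choice of members was made with SIG5's rise known, so the median of 0.18 is a description of the family. The summed sigma factor level was 284 FPKM under UV-B and 231 FPKM in white light, and SIG1 and SIG5 made up 77.2% of that difference, computed from the authors' deposited table.

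An error for each change can be derived from the authors' p-values under a normal approximation, which measures what their test implied and not a spread seen between libraries. On the log2 scale the implied standard errors under UV-B ran from 0.15 (SIG1) to 0.23 (SIG4). SIG4 shares its deposited locus with AT5G13720, so reads may be split between these entries. The 95% interval of the log2 change was 0.34 to 1.02 for SIG5 and 0.15 to 0.75 for SIG1. It was -0.12 to 0.49 for SIG2, -0.13 to 0.50 for SIG3, -0.15 to 0.47 for SIG6 and -0.56 to 0.33 for SIG4. The interval of SIG4 ended just below that of SIG5, at 0.33 against 0.34, and all the others overlapped that of SIG5. Whether SIG5 changed more than the other members was not tested. The authors' p of SIG5, 0.0001, was near the smallest in that comparison, 5e-05, which 413 entries shared, so its interval is approximate. The authors' deposited table also lists a test statistic, and the error from it was larger, at 0.23 for SIG5 against 0.17 from the p-value. With the error from the statistic, the intervals were 0.24 to 1.12 for SIG5 and -0.74 to 0.52 for SIG4, which overlap. The normal p-value of that statistic was 0.00262 for SIG5, and after Benjamini-Hochberg adjustment over 20390 entries it was 0.138, so the call of SIG5 rests on the p-value as deposited. By that alternative, chosen after the data were seen, 260 entries were called in place of 793.

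**Figure D2:**
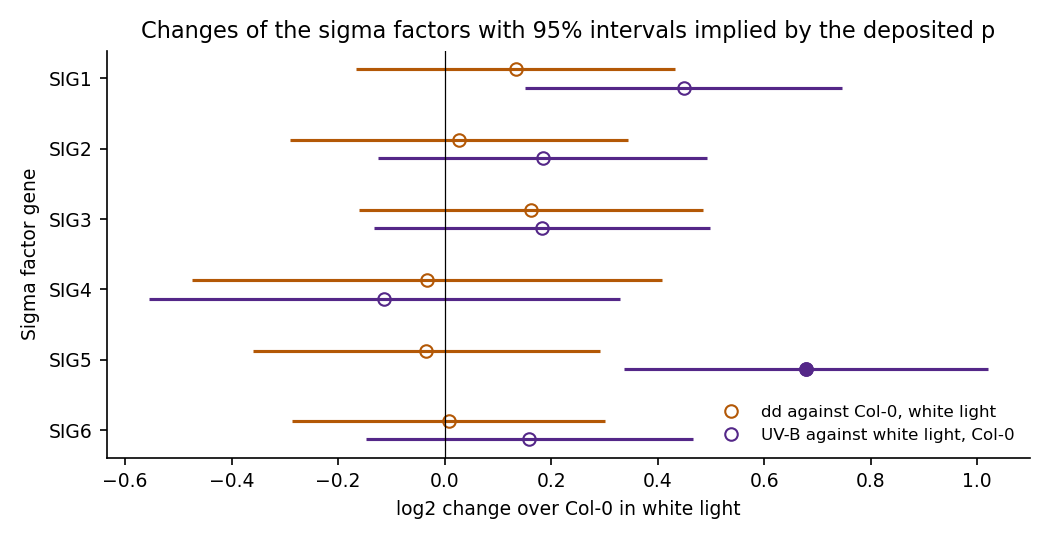
Log2 change of each sigma factor over Col-0 in white light (horizontal axis) in dd and under UV-B, with 95% intervals implied by the deposited p-value. The filled point marks q under 0.05, which SIG5 under UV-B alone reached at 0.68; the UV-B interval of SIG1 (0.15 to 0.75) also lies above 0, while its q was 0.0714.

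The size of change that was called can be read from all genes at these levels, in a set that includes the sigma factors themselves. Of 3950 tested protein-coding genes with Col-0 levels within the range of the sigma factors, 5.62% were called under UV-B, 126 higher and 96 lower, and the smallest rise called was a log2 change of 0.48. The change of SIG1, at 0.45, was just under it. In this set 190 genes rose in value by at least as much as SIG1 and 126 of them were called, and 68 rose by at least as much as SIG5, of which 64 were called. The rises in value of SIG2, SIG3 and SIG6 were smaller than any rise called in this set, and the difference of SIG4 was smaller than any fall called there (-0.49). Among all 19344 tested protein-coding genes, 558 had a higher log2 change than SIG5 and 1202 a higher one than SIG1.

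**Figure D3:**
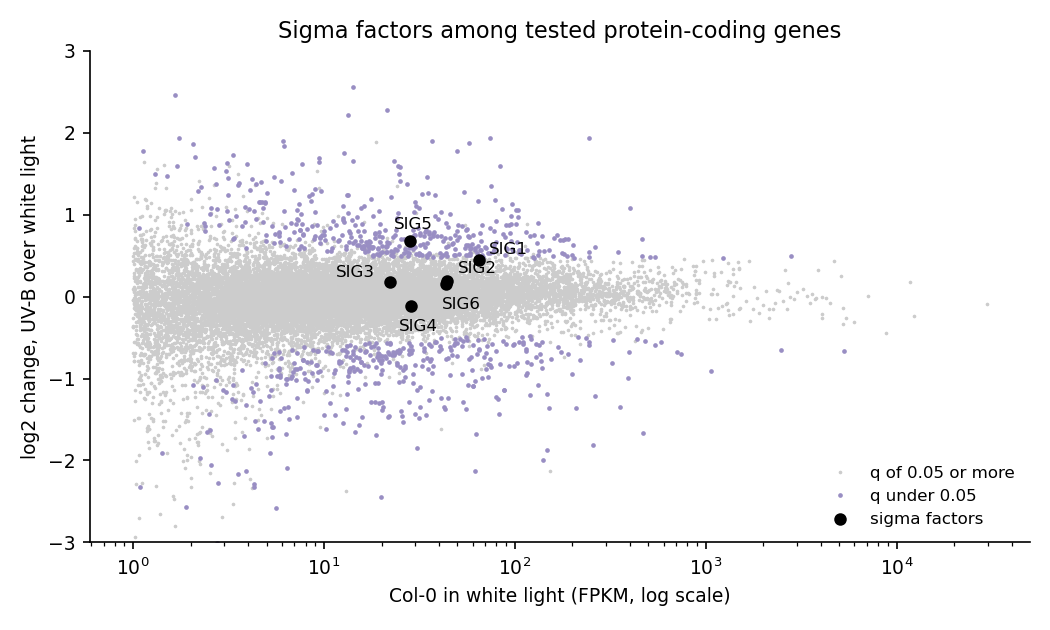
Log2 change under UV-B (vertical axis) against the Col-0 white-light level (horizontal log axis) for 18984 tested protein-coding genes of at least 1 FPKM in Col-0 in white light; 7 lie outside the axis, which ends at a change of 3 in size. Black points are the sigma factors: SIG5 lies among the called genes, SIG1 at the edge of the uncalled ones, and the other 4 within them.

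The dd comparison set the methyltransferase mutant against the wild type, and no sigma factor passed the threshold. Of 20416 tested entries, 0.421% passed in the authors' deposited table, 0.264% as higher and 0.157% as lower, so a count of 0 among 6 members is near this background. None of the 6 had an unadjusted p under 0.05 in the authors' deposited table, and by the normal p-value of the deposited test statistic the count was also 0. SIG3 differed most in value, with 24.99 FPKM in the mutant and 22.3 in the wild type, a log2 change of 0.16 (the authors' p = 0.325 in their deposited table). For SIG1 the authors' deposited table gives 71.5 and 65.2 FPKM, so that its log2 change was 0.13. SIG5 stood at 27.9 and 28.5 FPKM by the authors' deposited table, so that its log2 change was -0.034 with an implied 95% interval of -0.36 to 0.29. SIG4 had 28.1 and 28.8 FPKM, SIG2 45.4 and 44.6 FPKM and SIG6 44.1 and 43.9 FPKM in the authors' deposited table. The order of the 6 levels in dd was the same as in Col-0, and the summed level was 242 FPKM against 233 FPKM, computed from the authors' deposited table. At these levels the smallest rise called in dd was a log2 change of 0.63, among 3949 protein-coding genes of which 0.329% were called. Both comparisons use the same Col-0 libraries, so the values of 1 are not independent of the other.

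Partners and regulators of the sigma factors were described next, as lists of known genes. Among 5 proteins that bind or phosphorylate sigma factors, 1 fell under UV-B and none rose in the authors' deposited table. Of all tested entries there, 1.81% passed as lower and 2.04% as higher. The partner that fell was SIB1, sigma factor binding protein 1, a nuclear-encoded plastid protein that also takes part in defence responses. The authors' deposited table lists SIB1 at 7.26 FPKM under UV-B and 13.6 without it, a log2 change of -0.90 (q = 0.00249). By the normal p-value computed from the authors' test statistic SIB1 too would miss the threshold (adjusted p = 0.116, Benjamini-Hochberg). In dd its 20.6 FPKM stood against 13.7 for Col-0, a log2 change of 0.59 that missed the threshold (p = 0.002 and q = 0.241 in the authors' deposited table). Its relative SIB2, at 31.9 FPKM with UV-B and 33.0 without, did not pass by the authors' deposited table. The chloroplast sensor kinase CSK (log2 change 0.21), the plastid casein kinase 2 subunit CKA4 (-0.070) and DG1, a pentatricopeptide protein that binds SIG6 (0.084), did not pass under UV-B, computed from the authors' deposited table. None of the 5 passed in dd, which is near the 0.421% of all tested entries that passed there. In dd DG1 was at 11.9 FPKM against 9.36 for Col-0 (p = 0.0558 in the authors' deposited table).

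By the authors' deposited table, 2 of 10 light and clock regulators rose under UV-B and none fell, and none passed in dd. Of all tested entries, 2.04% passed as higher and 1.81% as lower under UV-B, and 0.421% passed in dd. The list was chosen with earlier results of these data known, so its count under UV-B is a description. Finding none in dd is near the share there. HYH, a bZIP factor of light signalling, rose by 0.78 on the log2 scale, from 94.6 FPKM in white light to 162 with UV-B (q = 0.00249, from the authors' deposited table). LHY, a clock factor that peaks at dawn, rose by 0.60, from 58.5 FPKM to 88.5 with UV-B (q = 0.00458, from the authors' deposited table). Both calls were lost with the normal p-value computed from the authors' test statistic (adjusted p = 0.0656 for HYH and 0.257 for LHY, Benjamini-Hochberg). HY5, the relative of HYH, was at 37.5 FPKM with UV-B and 26.8 without, a log2 change of 0.48 (q = 0.103, from the authors' deposited table). CCA1, the relative of LHY, was at 72.3 and 62.2 FPKM (q = 0.723, from the authors' deposited table). The photoreceptor genes CRY1, CRY2, PHYA, PHYB and UVR8, and GUN1, a plastid signalling gene, had log2 changes from -0.20 to 0.25 and did not pass, computed from the authors' deposited table.

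For the polymerase that the sigma factors serve, counts of 0 were near the share of all tested entries called, 3.85% under UV-B and 0.421% in dd, and say little about it by themselves. Of 12 nuclear genes for proteins associated with the plastid-encoded polymerase, none passed in either comparison in the authors' deposited table, none had an unadjusted p under 0.05 there, and their log2 changes under UV-B ran from -0.21 to 0.16 around a median of -0.023. Their Col-0 levels, from 10.4 FPKM for PTAC2 to 192 FPKM for PTAC7, spanned those of the sigma factors in the authors' deposited table. The 3 phage-type RNA polymerases, the other transcription machinery of plastids and mitochondria, were lower at 2.67 to 9.95 FPKM and had log2 changes of -0.12 to -0.071 under UV-B, and by the authors' deposited table none passed. In dd the associated proteins had log2 changes from -0.15 to 0.15 and the phage-type polymerases from -0.088 to 0.0085, computed from the authors' deposited table.

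Plastid transcripts were low in these libraries, which were made with an mRNA kit; the 134 plastid entries held 0.201% of the summed FPKM of Col-0 in white light and 0.153% of that under UV-B. Of the 4 core subunits of the polymerase, rpoB had 3.10 FPKM and rpoC1 0.678 FPKM in Col-0 in white light, and neither passed under UV-B, while rpoA and rpoC2 were not tested there, in the authors' deposited table. In dd 3 of the 4 were tested and none passed in the authors' deposited table. Of 11 plastid entries with a known dependence on sigma factors, 10 were tested in each comparison and none passed in the authors' deposited table. Finding none is near the share of all tested entries called, 3.85% under UV-B and 0.421% in dd, and says little by itself. Among these plastid entries, values are given for psbA, for a photosystem II core protein, and for ATCG00270 and ATCG00280. The locus shared by ATCG00270 and ATCG00280 spans psbD and psbC. In the authors' deposited table psbA had 21.1 FPKM under UV-B and 24.5 without it. ATCG00270 had 3.28 and 2.72 FPKM there, and ATCG00280 had 5.12 and 5.40 FPKM. The log2 changes were -0.22 for psbA (q = 0.826), 0.27 for ATCG00270 (q = 0.988) and -0.076 for ATCG00280 (q = 0.998) in the authors' deposited table. The entries of the shared locus thus differed in sign, and neither passed. On the log2 scale the implied standard errors were 0.18 for psbA, 0.40 for ATCG00270 and 0.24 for ATCG00280. The very short psbN, at 13.3 FPKM under UV-B, 40.8 in white light and listed at 0 in dd, varied most and did not pass (p = 0.300 under UV-B and 0.0139 in dd in the authors' deposited table). At an unadjusted p under 0.05, psbN in dd was the single plastid entry of these lists to pass.

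**Figure D4:**
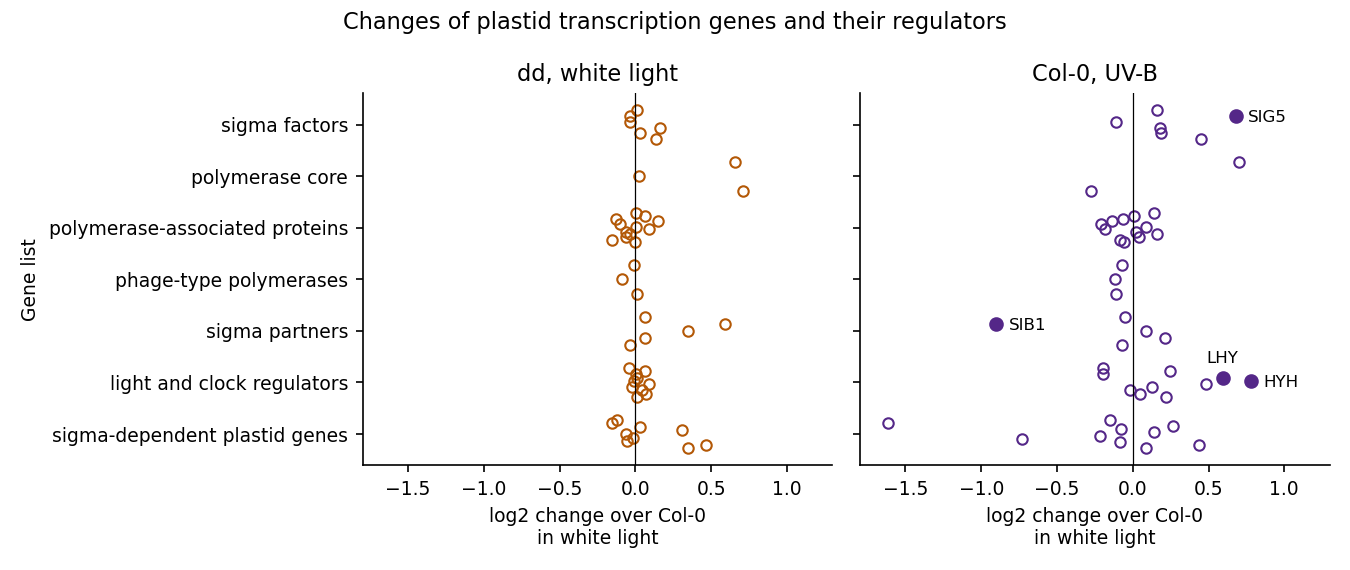
Log2 changes over Col-0 in white light (horizontal axis) of tested genes in 7 lists, in dd (left) and under UV-B (right); filled points had q under 0.05. SIG5, HYH, LHY and SIB1 are filled under UV-B and no gene is filled in dd; psbN in dd, listed at 0 there, has no finite change and is not drawn.

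Markers of tissues were read beside the rise of SIG5, because sigma factors act in green tissue. Of all tested entries, 3.85% passed under UV-B, 2.04% as higher and 1.81% as lower, so a short list with none called is near this background. Under UV-B, 1 of 4 green tissue markers fell and none rose in the authors' deposited table, and their summed level was 24606 FPKM against 23556. The marker that fell was LHCB1.2, at 5314 FPKM in white light and 3340 under UV-B by the authors' deposited table, which has near-identical copies and is therefore uncertain. RCA, Rubisco activase, went the other way in value, with 6343 FPKM under UV-B and 4689 without it, a log2 change of 0.44, close to that of SIG1, that missed the threshold (p = 0.00305 and q = 0.0697 in the authors' deposited table). RBCS1A, a Rubisco small subunit, had a log2 change of 0.18 and LHCB2.1 of -0.16, neither past the threshold, computed from the authors' deposited table. Of 4 root markers, BGLU22 fell from 26.0 to 16.9 FPKM and none passed as higher in the authors' deposited table. By value 3 were lower and 1 higher, which was EXPA7 at 15.2 against 13.9 FPKM (q = 0.993). Their summed level was 1831 FPKM against 2195. Most of that sum was PYK10, at 1797 FPKM under UV-B and 2151 without it, which did not pass (q = 0.553 in the authors' deposited table). The calls of LHCB1.2 and BGLU22 were lost with the normal p-value computed from the authors' test statistic (adjusted p = 0.108 and 0.294, Benjamini-Hochberg). None of 3 markers of dividing cells passed, and no seed marker was tested, in the authors' deposited table. KNOLLE, a cytokinesis gene among them, shares its deposited locus with NPQ1, so its value is uncertain. The part of tissue make-up in the sigma factor values was not tested.

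The 6 genes lie on 4 chromosomes, given here by the deposited TAIR10 locus. SIG1 (AT1G64860) is on chromosome 1 from 24097736 to 24100970 and SIG2 (AT1G08540) on chromosome 1 from 2703295 to 2706860. SIG3 (AT3G53920) is on chromosome 3 from 19960789 to 19964603 and SIG6 (AT2G36990) on chromosome 2 from 15537225 to 15540139. SIG4 (AT5G13730) is on chromosome 5 from 4427783 to 4430901 and SIG5 (AT5G24120) on chromosome 5 from 8157151 to 8160343. RefSeq lists 3 transcripts for SIG5, 2 each for SIG1 and SIG3 and 1 for each other member, and the deposited values are not split by transcript.

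Genes beside the sigma factors were looked up after the main values were known. SIG2 lies 132 bp from ALB1, a subunit of magnesium chelatase in chlorophyll synthesis, and 7 bp from the locus that NPQ1, the violaxanthin de-epoxidase, shares with KNOLLE, and neither ALB1 nor NPQ1 passed in either comparison in the authors' deposited table. WRKY30, a transcription factor gene 2440 bp from the SIG5 locus, rose under UV-B from 1.50 FPKM to 4.16, a log2 change of 1.47 (q = 0.0199 in the authors' deposited table). With the normal p-value computed from the authors' test statistic this call was lost (adjusted p = 0.161, Benjamini-Hochberg). In dd WRKY30 was at 1.38 FPKM against 1.51 and did not pass, by the authors' deposited table. Among the protein-coding genes flanking the sigma factors, WRKY30 was the only one called in either comparison, and some were not tested. AT1G64850, 2 bp from SIG1, had a log2 change of 0.19 under UV-B (q = 0.830 in the authors' deposited table). Of all tested entries, 2.04% passed as higher under UV-B. The nearest transposons were annotated 465 bp and 236 bp from the SIG5 locus, 370 bp from SIG1 and 342 bp from SIG3, and all 4 were listed at 0 FPKM in all 3 groups in the authors' deposited table.

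Likeness of pattern was measured as the distance between pairs of log2 changes, in dd and under UV-B, over 14337 other protein-coding genes of at least 5 FPKM. With 3 pooled groups this is a coarse measure, and both changes share the Col-0 value. Nearest to SIG5 were PLAT1, with changes of -0.045 and 0.68, and CLC-B, with -0.048 and 0.68, computed from the authors' deposited table. Within a distance of 0.1 there were 47 genes for SIG5 and 254 for SIG1. For the other members there were 899 (SIG3) to 2052 (SIG4), since many genes lay close to no change. Nearest to SIG1 were OEP37 and AT5G48530, to SIG2 LTO1 and VIK, to SIG3 AT3G28760 and APK2A, to SIG4 AT3G61180 and RPS15A, and to SIG6 bHLH104 and AT2G28080.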

How the data were processed

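RNA-seq libraries of whole seedlings were made with a stranded mRNA kit, per the labels' protocols. BSMAP, Cufflinks, HISAT2, Trimmomatic and the build TAIR10 are listed in the submitters' processing notes, with versions and roles not given there. The 2 comparison tables look like Cufflinks output, with pooled FPKM values, a test statistic (a score) and p-values and q-values computed by the authors, per the file headers. The q-values equal a Benjamini-Hochberg adjustment of the deposited p-values over all entries marked as tested. Read depth is unknown, since no counts are held, and whether counting used strand is not given. The direction of the deposited fold was reversed, and log2 changes were recomputed from FPKM as the group over untreated Col-0, with no pseudocount, in Python 3.11.15 with scipy 1.17.1. Calls were made at q under 0.05. The implied standard error of a change was its size over the normal quantile of the deposited p, and the 95% interval was taken from that error. The calculations were run on simulated normal log2 changes with a known error. This checks the code, and not whether a normal approximation holds for the deposited p-values. The members and the 12 lists, with 67 genes, were chosen with earlier results of these data known. Named were the members, DRM1, DRM2, psbD, psbA, HY5, HYH, list genes past q 0.05 and the 2 genes nearest in pattern to each member; others were chosen after their values were seen. Names came from RefSeq (TAIR10.1), which held all 52 nuclear list genes; 11 of 15 plastid entries were named by position, as the single RefSeq gene within the deposited locus. Lists of raised transposons were not used. Sequences were not analysed here.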

Additional observations from a re-analysis of the deposited data

How the results depend on the processing

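Counts of called sigma factors were recomputed with a q threshold of 0.01, a required log2 change of 1, at least 1 FPKM and adjustment over protein-coding genes, their log2 changes with a pseudocount of 1 and other scalings, and counts of the 6 lists of plastid transcription genes and regulators with a q of 0.01. Markers, shares, ranks and likeness were not recomputed. The count of 1 called sigma factor under UV-B became 0 when a log2 change of 1 was also required, as SIG5 changed by 0.68. It also became 0 with the normal p-value of the deposited test statistic, an alternative chosen after seeing the data that also took the sigma partners from 1 call to 0 and the light and clock regulators from 2 to 0; the cause of the gap between the deposited p-value and that statistic was not tested. With the other alternatives SIG5 alone was called, and SIG1 stayed above the threshold (adjusted p = 0.0682 over protein-coding genes by Benjamini-Hochberg adjustment of the authors' p). In dd the count was 0 under every alternative; a q of 0.01 could not be reached there, and 1 FPKM removed no tested entry. SIG6 in dd turned from 0.0075 to -0.0037 when summed FPKM was set equal, and the other 35 recomputed log2 changes kept their sign. Under UV-B the counts of those 6 lists at q 0.01 were equal to those at q 0.05. In dd these counts were 0 at q 0.05, so a stricter threshold could not change them. No paired analysis was possible because the tables hold 1 pooled value per group, so no replicate could be left out either. The very short psbN and psaJ had implied errors of 1.56 and 0.57 under UV-B, against 0.21 for rpoB.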
